A study of Mus musculus with 23 samples.

Results

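The comparison described here is of *Bmal1*-/- against *Clock*-/- β-TC6 cells by RNA-seq. It uses the 3 *Bmal1*-/- and 3 *Clock*-/- libraries that the sample labels name, 6 of the 9 RNA-seq libraries and of the 23 samples of the series, and asks how cells differ that lost one or the other partner of a single heterodimer. The series studied the circadian clock, transcription and alternative splicing in β-TC6, a mouse insulinoma line that makes and secretes insulin. Its other samples map the RNA-binding protein THRAP3 and were not analysed here. The WT libraries, 3 of unedited β-TC6 cells, are given beside the knockout lines as levels. Both knockout lines came from β-TC6 by CRISPR–Cas9 editing with homology-directed repair, at exon 8 of *Bmal1* with selection in G418 and at exons 6 and 7 of *Clock* with selection in puromycin. Each is a single picked clone, kept like the WT cells at passages 5 to 15, and the 3 libraries of a genotype are wells of that one line. Wells are thus the only spread behind the p-values, and differences between the clones or the selections cannot be told apart from those of the genotypes.

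BMAL1 and CLOCK are bHLH–PAS transcription factors that bind E-box sites as a pair and drive the genes of their own repressors, the PER and CRY proteins, which close a daily loop. A further loop runs through the REV-ERB receptors, which repress *Bmal1*, and the ROR receptors, which activate it from the same element. NPAS2 is a paralog of CLOCK that can also pair with BMAL1. In β cells the clock is known to set the capacity for insulin secretion.

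The edited exons are printed to show where each partner was cut, and in both proteins they encode part of the bHLH region, which binds DNA and the partner. In the RefSeq numbering on GRCm38 that 2 of 5 *Arntl* (the symbol of *Bmal1*) transcripts share, exon 8 is coding, lies at chr7:113284999-113285156 on the plus strand and has 158 bases. In the other transcripts exon 8 is another exon, of 42 or 118 bases, and the labels name no transcript. Exons 6 and 7 of *Clock*, in 2 of 3 transcripts, are coding and lie at chr5:76265791-76265939 and chr5:76262675-76262766 on the minus strand, with 149 and 92 bases. Neither 158 nor the 241 bases of both *Clock* exons is a multiple of 3. The sequences are written 5′ to 3′ on the strand of the gene.
*Arntl* exon 8: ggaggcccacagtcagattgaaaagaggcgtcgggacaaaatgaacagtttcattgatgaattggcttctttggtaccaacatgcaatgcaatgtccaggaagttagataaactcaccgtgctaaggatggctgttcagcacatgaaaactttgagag
*Clock* exon 6: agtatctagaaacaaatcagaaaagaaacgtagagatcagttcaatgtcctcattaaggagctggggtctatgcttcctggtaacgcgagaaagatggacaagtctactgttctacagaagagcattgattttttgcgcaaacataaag
*Clock* exon 7: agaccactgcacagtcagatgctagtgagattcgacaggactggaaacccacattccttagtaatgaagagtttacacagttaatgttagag

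Values are TPM, transcript levels per length that the authors scaled to the same total in each library and that keep no read counts. Low values rise in steps of single reads, and these steps gave the knockout libraries depths of 0.786 to 1.45 where WT replicate 1 is 1. The *Bmal1*-/- libraries stood apart at low levels. They listed 2549, 2189 and 2691 genes at 0, against 791, 1010 and 911 in *Clock*-/- and 687 to 905 in WT libraries. Their relative depths were 1.13, 1.45 and 0.965, against 0.974, 0.786 and 0.786 for *Clock*-/-, and the cause was not tested. In all, 900 genes were at 0 in every *Bmal1*-/- library and above 0 in every *Clock*-/- library, and 67 the other way. Only 41 of the 900 reached a mean of 5 TPM in *Clock*-/- cells, most of them predicted genes or microRNA loci, with *Kcnk1*, *Hsf2bp* and *Evx1* among the others. Of the 67, 1 did in *Bmal1*-/- cells (*Wtip*). *Hsf2bp*, *Evx1* and *Wtip* were named after their values were seen. Across genes, log2 of TPM + 1 correlated at 0.991 to 0.993 between *Bmal1*-/- libraries, at 0.976 to 0.987 between *Clock*-/- libraries and at 0.918 to 0.935 between the lines.

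Of the β-cell markers, *Ins2* and *Iapp* were high in every library, while *Ins1*, *Slc2a2* and *Pax4*, given with the islet genes, were lower in *Clock*-/- than in *Bmal1*-/- libraries. The insulin gene *Ins2* was at 21750, 18750 and 19500 TPM in *Bmal1*-/- and 14630, 16410 and 12660 in *Clock*-/- libraries, and the amylin gene *Iapp* at 14850, 15320 and 15980 and at 17690, 18290 and 15140 TPM, in the same order. The exocrine, duct, stromal and immune markers held 44 genes, of which 30 were in the table and 13 were tested. Their summed level was 34.5 to 43.5 TPM in *Bmal1*-/-, 136 to 138 in *Clock*-/- and 219 to 229 in WT libraries. *Krt18* and *Cdh5* were at 0 in every *Bmal1*-/- library and the pan-leukocyte gene *Ptprc* reached at most 0.125 TPM in any library. In bulk RNA, fewer cells of a type and less RNA per cell cannot be told apart.

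Log2 of TPM + 1 was compared with limma over the 15031 genes that reached 1 TPM in 3 or more of the 9 libraries. A gene was called at a Benjamini–Hochberg adjusted p under 0.01 and a log2 difference beyond 1, and is said to be higher in one line at an adjusted p under 0.01 alone. Values in brackets after levels are the log2 difference between the lines, positive where *Bmal1*-/- cells were higher, with its adjusted p. The added 1 makes these differences too small for genes of low level. Of the genes tested, 939 were called higher in *Bmal1*-/- (6.25%) and 1243 higher in *Clock*-/- cells (8.27%). Without a minimum difference it was 3420 (22.8%) and 3277 (21.8%), and 8334 did not pass. The median difference over all genes tested was −0.01 and the median standard error 0.13. In 2181 of the 2182 called genes the libraries of the lines did not overlap. The call, made on these same libraries, nearly fixes this in advance, so it is no further support.

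The balance of the calls depended on the level of the genes. At a mean below 5 TPM in the higher line, 164 of 3736 genes were called higher in *Bmal1*-/- and 461 in *Clock*-/- cells. Between 5 and 20 TPM it was 283 and 430 of 3951 genes. Between 20 and 100 TPM it was 357 and 248 of 5179, and from 100 TPM up 135 and 104 of 2165. Most calls placed the WT level at or between the lines, a placing that picking genes for a wide gap favours. Among the 939 genes called higher in *Bmal1*-/- cells, the WT libraries lay between the lines for 428, overlapped only the *Clock*-/- libraries for 267 and only the *Bmal1*-/- libraries for 104, and lay above both for 92 and below both for 45. Among the 1243 called higher in *Clock*-/- cells these numbers were 440, 410, 170, 151 and 34. The WT libraries overlapped both lines for 3 and 38 of these genes. Over all 15031 genes tested, WT lay between the lines for 1788. Among the genes not called, WT overlapped only the *Clock*-/- libraries for 4219 and only the *Bmal1*-/- libraries for 1521. It lay above both lines for 1852 of these and below both for 1232. More overlap with *Clock*-/- than with *Bmal1*-/- libraries was thus not particular to the called genes.

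**Figure D1:**
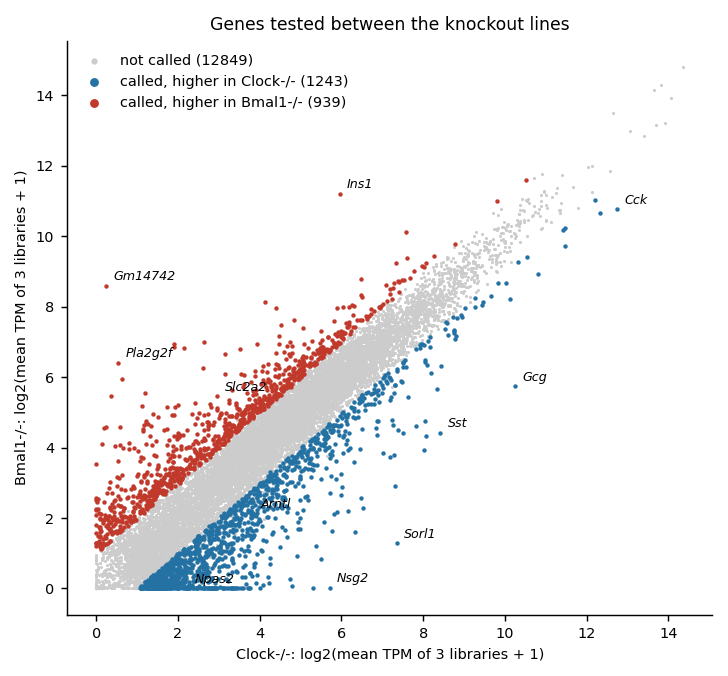
Each point is one of the 15031 genes tested, with the log2 of the mean TPM + 1 of the 3 *Clock*-/- libraries on the x axis and of the 3 *Bmal1*-/- libraries on the y axis. The 939 red genes (called, higher in *Bmal1*-/-) lie above the diagonal and the 1243 blue genes (called, higher in *Clock*-/-) below it, many of them along the lower edge where *Bmal1*-/- libraries are at or near 0.

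Chromosomes 16 and 11 had the largest median differences as whole chromosomes. Over all genes tested, 22.8% were higher in *Bmal1*-/- and 21.8% in *Clock*-/- cells. The 427 genes tested on chromosome 16 had a median difference of 0.47. Of these, 215 (50.4%) were higher in *Bmal1*-/- and 28 (6.56%) in *Clock*-/- cells. Against the WT mean, the median of these genes was at −0.43, −0.58 and −0.35 in the *Clock*-/- libraries and at −0.05, 0.02 and 0.06 in the *Bmal1*-/- libraries. On chromosome 11, with 1201 genes, the median difference was 0.29, and 487 (40.5%) were higher in *Bmal1*-/- and 156 (13%) in *Clock*-/- cells. There the *Bmal1*-/- libraries were at 0.36, 0.34 and 0.37 against the WT mean and the *Clock*-/- libraries at 0.07, −0.05 and 0.14. The shift ran along both chromosomes: in 10 bins of equal gene number by position, medians of the difference were 0.29 to 0.57 on chromosome 16 and 0.12 to 0.42 on chromosome 11. The medians of the other autosomes and of X lay between −0.19 and 0.13, although stretches of some of them departed as far. Bins of chromosome 15 from 97675097 to 103899312 had medians of 0.56 and 0.46, those of chromosome 17 from 32354055 to 40935047 of 0.54 and 0.41, those of chromosome 5 from 109757525 to 123573038 of 0.40 and 0.39, and those of chromosome 3 from 32725397 to 79603650 of −0.54 and −0.66. A bin of chromosome 13 from 75644896 to 95337841 had a median of −0.51. The part of such stretches in single genes was not tested, and not every named gene on these chromosomes is marked below. The called gene with the highest level on chromosome 16 was *App*, the amyloid precursor gene, at 600.2, 582 and 619 TPM in *Bmal1*-/- and 280.3, 224 and 302 in *Clock*-/- libraries (1.17, adjusted p = 7.95e-06), and with the chromosome median subtracted its difference was 0.70. On chromosome 11 it was *Vdac1*, a channel of the outer mitochondrial membrane, at 684, 695 and 684 TPM in the *Bmal1*-/- line and 312, 299 and 306 in the *Clock*-/- line (1.17, adjusted p = 1.27e-07), or 0.88 with the chromosome median subtracted. What part the chromosomes have in single genes was not tested, and named genes that no longer passed with the median of their own chromosome subtracted are given with that value.

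**Figure D2:**
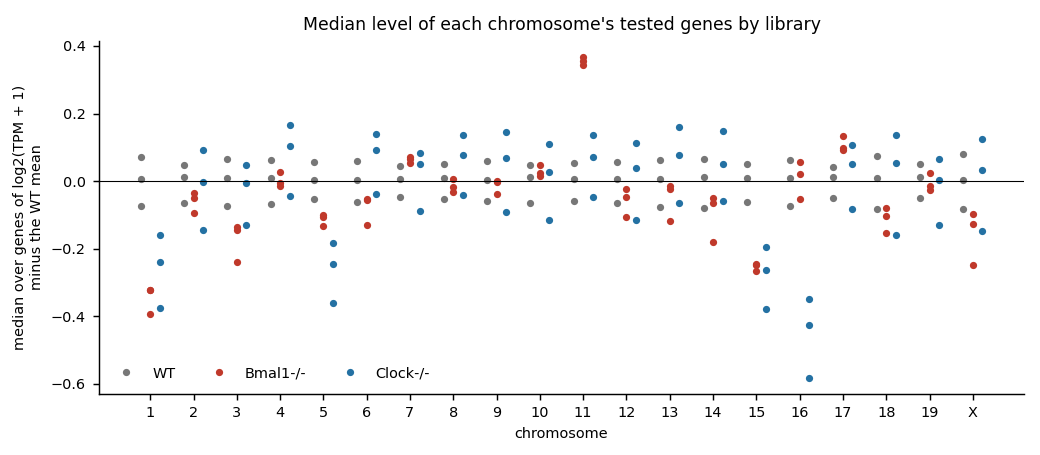
For each chromosome and library, a point gives the median over its tested genes of log2(TPM + 1) minus the mean of the WT libraries. The *Bmal1*-/- libraries stand at 0.34 to 0.37 on chromosome 11 and the *Clock*-/- libraries at −0.58 to −0.35 on chromosome 16, while both lines lie below WT on chromosomes 1 and 15.

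Among the clock activators, the partner left intact in *Clock*-/- cells and its alternative partner were both higher there. *Arntl* (chr7:113207465-113314126) was at 3.52, 3.32 and 3.41 TPM in *Bmal1*-/-, 13.2, 10.6 and 16.2 in *Clock*-/- and 3.63, 3.52 and 4.22 in WT libraries. The *Clock*-/- libraries were all above the others, and the *Bmal1*-/- and WT libraries overlapped. The log2 difference was −1.68 (standard error 0.15, adjusted p = 9.65e-06). *Npas2* (chr1:39193731-39363236) was listed at 0 in every *Bmal1*-/- library, at 0.0331, 0 and 0.0381 TPM in WT, and at 2.99, 3.496 and 4.59 in *Clock*-/- libraries (−2.22, adjusted p = 2.52e-06). *Clock* (chr5:76209868-76304792) was at 30.9, 35.1 and 36.5 TPM in *Bmal1*-/-, 35.97, 28.03 and 46.6 in *Clock*-/- and 49.7, 46.7 and 40.9 in WT libraries. The lines overlapped, and the interval of the difference was −0.44 to 0.28 (95%, adjusted p = 0.6897). *Arntl2*, a paralog of *Arntl*, reached at most 0.538 TPM in a knockout library and was not tested. Whole-gene levels cannot show loss of a protein, since the edits take out a small part of each transcript.

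The repressors split. *Per2* (chr1:91415982-91459324) was at 9.17, 9.57 and 9.38 TPM in *Bmal1*-/- and 24.6, 18.8 and 29.9 in *Clock*-/- libraries, with WT at 18.9, 16.6 and 17.4 overlapping the latter, a difference of −1.27 (adjusted p = 5.43e-05). *Per1* (chr11:69095217-69109960) went the other way, at 24.01, 22.1 and 22.5 TPM in the *Bmal1*-/- line and 12.1, 9.32 and 14.1 in the *Clock*-/- line (0.91, adjusted p = 2.45e-04), with WT between the lines. On chromosome 11, its difference was 0.62 with the chromosome median subtracted (adjusted p = 0.00273). *Cry1*, at 117, 125 and 123 TPM in the *Bmal1*-/- line and 75.4, 62.7 and 79.8 in the *Clock*-/- line, was higher in *Bmal1*-/- cells (0.74, adjusted p = 2.64e-04), and both lines were above the 34.4, 29.8 and 26.9 TPM of WT. *Per3* and *Cry2* did not pass the test. *Per3* was at 2.41 ± 0.3705 TPM in *Bmal1*-/- against 3.25 ± 0.811 in *Clock*-/- cells (mean ± SD of n = 3, as in all values written this way), both below the 12.1 ± 1.02 of WT, and the 95% interval of its difference was −0.66 to 0.05. For *Cry2* the interval was −0.04 to 0.58.

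Among the REV-ERB and ROR genes reported here, both REV-ERB genes and *Rora* were higher in *Bmal1*-/- than in *Clock*-/- cells, and over the alternative settings 1 to 3 of them passed, with 1 without *Bmal1*-/- replicate 2 or 3 or *Clock*-/- replicate 1. *Nr1d1* (REV-ERBα, chr11:98767932-98775333) was at 5.09, 3.45 and 4.87 TPM in *Bmal1*-/-, 2.17, 1.51 and 2.101 in *Clock*-/- and 7.68, 8.32 and 9.07 in WT libraries, so that every *Clock*-/- library was below every *Bmal1*-/- library, and both were below WT (0.90, adjusted p = 8.25e-04). *Nr1d2* (REV-ERBβ) was at 10.3, 13.5 and 15.2 TPM in the *Bmal1*-/- line, at 7.14, 6.496 and 9.13 in the *Clock*-/- line and at 97.3, 82.1 and 76.1 in WT (0.70, adjusted p = 0.004). *Rora* was at 12.4 ± 0.822 TPM in *Bmal1*-/- and 7.25 ± 1.76 in *Clock*-/- cells (0.72, adjusted p = 0.00266).

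Output genes of the clock were more often higher in *Bmal1*-/- than in *Clock*-/- cells. Of 23 tested, 12 were higher in *Bmal1*-/- and 3 in *Clock*-/- cells (52.2% and 13%, against 22.8% and 21.8% of all genes), with a median difference of 0.31. Over the alternative settings these counts were 10 to 12 and 1 to 3. Some members, *Per2* among them, also belong to the lists described above, so these counts are not separate from theirs. *Nfil3*, a bZIP repressor that opposes DBP at D-boxes, was at 74.8, 71.3 and 71.6 TPM in *Bmal1*-/- against 34.9, 28.7 and 32.8 in *Clock*-/- libraries, the latter overlapping WT at 31.4, 32.5 and 32.4 (1.16, adjusted p = 2.10e-06). The PAR bZIP activator *Hlf* was at 30.8 ± 2.32 and 13.1 ± 2.76 TPM (1.18, adjusted p = 6.05e-05), and *Dbp* at 29.7 ± 1.05 and 23.8 ± 0.873 TPM (0.31, adjusted p = 0.00554, or 0.0118 with the median of chromosome 7 subtracted). For *Tef*, the third PAR bZIP gene, the interval of the difference was −0.14 to 0.30. *Bhlhe40* (DEC1) and *Bhlhe41* (DEC2), repressors that bind E-boxes, had differences of 1.11 (adjusted p = 6.68e-05) and 0.75 (adjusted p = 3.36e-05). The cell cycle kinase gene *Wee1* (0.97, adjusted p = 2.28e-05) and the P450 reductase gene *Por* (1.15, adjusted p = 7.33e-07) were higher in *Bmal1*-/- cells as well. *Ciart* (CHRONO), a repressor of the BMAL1–CLOCK pair, was lower in *Bmal1*-/- cells, at 4.303, 6.73 and 5.24 against 9.01, 7.67 and 9.29 TPM (−0.60, adjusted p = 0.00563, and 0.0209 with the median of chromosome 3 subtracted). Of 13 kinases and ubiquitin ligases that set the stability of PER and CRY, 8 were higher in *Bmal1*-/- and 0 in *Clock*-/- cells (61.5% and 0%). The 8 included *Fbxw11* (0.86, adjusted p = 1.50e-04) and *Btrc* (0.55, adjusted p = 1.43e-04). With limma at an unadjusted p under 0.05 the counts were 8 and 2, and over the alternative settings at the adjusted threshold 5 to 8 and 0 to 3. *Gsk3b*, on chromosome 16, was past the test (0.78, adjusted p = 0.00657) but not with its chromosome median subtracted (0.32, adjusted p = 0.195).

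**Figure D3:**
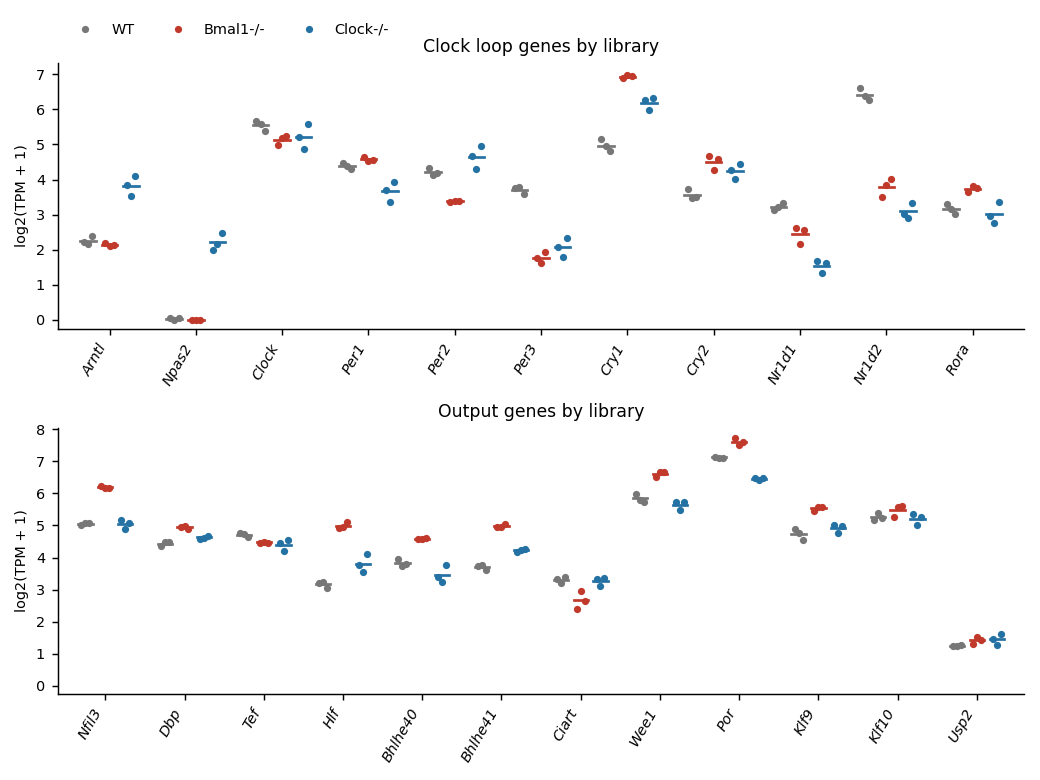
Points are the log2(TPM + 1) of each library for clock loop genes (upper) and output genes (lower), with a bar at the mean of each genotype's 3 libraries. *Arntl*, *Npas2* and *Per2* are higher in *Clock*-/- libraries, and *Per1*, *Cry1*, *Nr1d1*, *Nfil3*, *Hlf*, *Bhlhe40*, *Wee1* and *Por* in *Bmal1*-/- libraries.

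Among the clock genes, some promoters with the same motif lay at genes that differed in opposite directions. RefSeq promoters on GRCm38, the 250 bases before to 50 after a gene's start, were searched on both strands for CACGTG (the E-box bound by BMAL1 and CLOCK), TAGGTCA (an element bound by RORs and REV-ERBs), TTATGTAA (a D-box) and TGACGTCA (a cAMP response element), none of which contains another. The sequences show 3 of the clock genes with an E-box and both with the ROR element, on the strand of the gene, with matches in capitals. *Per1* and *Cry1*, with 1 E-box each, were higher in *Bmal1*-/- cells, while *Ciart*, with 3, was higher in *Clock*-/- cells. *Ciart* no longer passed with the median of its chromosome subtracted. Of genes with an E-box whose promoters are not printed, *Bhlhe41* was higher in *Bmal1*-/- cells and *Tef* did not pass the test. *Arntl* was higher in *Clock*-/- and *Nfil3* in *Bmal1*-/- cells, each with 1 ROR element, which in *Nfil3* is on the other strand and reads TGACCTA.
*Per1* (chr11:69098699-69098998, plus strand): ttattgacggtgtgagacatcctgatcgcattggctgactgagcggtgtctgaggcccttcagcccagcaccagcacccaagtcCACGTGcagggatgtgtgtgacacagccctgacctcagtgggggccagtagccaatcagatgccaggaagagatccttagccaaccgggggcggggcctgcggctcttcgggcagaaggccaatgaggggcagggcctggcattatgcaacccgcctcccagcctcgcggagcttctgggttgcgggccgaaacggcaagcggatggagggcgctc
*Cry1* (chr10:85185005-85185304, minus strand): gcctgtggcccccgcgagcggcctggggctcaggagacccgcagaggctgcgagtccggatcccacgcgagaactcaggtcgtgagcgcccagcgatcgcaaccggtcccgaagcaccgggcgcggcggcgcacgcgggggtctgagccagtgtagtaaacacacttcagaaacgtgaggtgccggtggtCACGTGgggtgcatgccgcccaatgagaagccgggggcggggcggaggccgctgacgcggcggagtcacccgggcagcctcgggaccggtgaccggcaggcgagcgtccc
*Ciart* (chr3:95882179-95882478, minus strand): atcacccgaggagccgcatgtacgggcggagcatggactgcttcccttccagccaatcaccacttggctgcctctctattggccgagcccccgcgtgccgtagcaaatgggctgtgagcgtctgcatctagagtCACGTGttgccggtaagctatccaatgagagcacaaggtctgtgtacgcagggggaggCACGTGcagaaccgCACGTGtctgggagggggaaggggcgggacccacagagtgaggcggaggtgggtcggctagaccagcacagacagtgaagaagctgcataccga
*Arntl* (chr7:113207261-113207560, plus strand): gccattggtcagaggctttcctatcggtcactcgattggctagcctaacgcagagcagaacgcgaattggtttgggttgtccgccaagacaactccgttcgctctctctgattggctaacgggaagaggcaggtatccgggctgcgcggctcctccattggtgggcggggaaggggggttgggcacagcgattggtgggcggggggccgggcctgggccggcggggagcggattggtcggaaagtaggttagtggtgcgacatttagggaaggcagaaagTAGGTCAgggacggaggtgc
*Nfil3* (chr13:52980990-52981289, minus strand): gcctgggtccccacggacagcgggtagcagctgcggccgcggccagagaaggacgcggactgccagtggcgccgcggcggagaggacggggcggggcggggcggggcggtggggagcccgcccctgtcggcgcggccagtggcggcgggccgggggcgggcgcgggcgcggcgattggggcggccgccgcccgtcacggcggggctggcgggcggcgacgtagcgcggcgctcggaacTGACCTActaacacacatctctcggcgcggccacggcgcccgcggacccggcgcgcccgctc

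Of the 32 clock and output genes listed, 26 had a promoter in the table and 7 of these held CACGTG. Over all genes tested, 10294 had one or more promoters and 11.8% held CACGTG, against 10.1% of the 696 called higher in *Bmal1*-/- and 10.5% of the 675 called higher in *Clock*-/- cells. TAGGTCA was in 2.24% of all, in 4.17% of those higher in *Bmal1*-/- (29 genes) and in 2.22% of those higher in *Clock*-/- cells (15 genes). TTATGTAA was in 0.68%, 0.575% and 1.48%, and TGACGTCA in 3.8%, 2.44% and 2.81%. Of the 32851 promoters in the table, these motifs were in 7.15%, 2.61%, 0.938% and 1.79%. The shares are descriptions of short windows.

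Islet hormone genes gave some of the widest gaps between the lines. *Ins1* (chr19:52264297-52265476) was at 2567, 2319 and 2197 TPM in *Bmal1*-/-, 61.4, 63.95 and 57.6 in *Clock*-/- and 2277, 2359 and 2284 in WT libraries, so that *Bmal1*-/- and WT libraries overlapped and every *Clock*-/- library was far below them. Its difference was 5.25 (standard error 0.07, adjusted p = 1.66e-10). *Ins2* differed far less (0.46, adjusted p = 0.00503), and reads of the 2 genes may be shared. Glucagon, somatostatin and cholecystokinin mRNA went the other way. *Gcg* (chr2:62474530-62483650) was at 53.9, 49.4 and 53.4 TPM in *Bmal1*-/-, 1308, 1155 and 1211 in *Clock*-/- and 475, 493 and 462 in WT libraries, with WT between the lines (−4.52, adjusted p = 1.69e-10). *Sst*, on chromosome 16, was at 21.9, 16.8 and 22.8 TPM in the *Bmal1*-/- line, at 365, 373 and 287 in the *Clock*-/- line and at 88.2, 82.9 and 92.9 in WT (−4.0, adjusted p = 1.84e-08). *Cck* was at 1734 ± 129 TPM in *Bmal1*-/- and 6867 ± 828 in *Clock*-/- cells, both above the 1091 ± 102 of WT (−1.98, adjusted p = 4.21e-07). *Ppy* and *Ghrl* reached at most 1.46 and 0.633 TPM in any library and were not tested. The list of other islet endocrine types had 14 tested members, of which 4 were higher in *Bmal1*-/- and 7 in *Clock*-/- cells (28.6% and 50%, against 22.8% and 21.8% of all genes). Its summed level was 3951 to 4749 TPM in *Bmal1*-/-, 11104 to 13447 in *Clock*-/- and 4260.3 to 4512 in WT libraries. Such a sum follows the members of highest level, and members differed in both directions. *Irx1* and *Irx2*, homeobox genes of α cells, were higher in *Bmal1*-/- cells, where *Gcg* was low (2.59, adjusted p = 2.24e-07, and 1.13, adjusted p = 1.20e-05). *Ddc*, which makes monoamines, was at 665 ± 10.04 TPM there and 193 ± 6.69 in *Clock*-/- cells (1.78, adjusted p = 1.57e-08).

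β-cell identity and maturity genes were divided evenly. Of 40 tested, 15 were higher in *Bmal1*-/- and 15 in *Clock*-/- cells (37.5% each, against 22.8% and 21.8% of all genes), with a median difference of −0.01. Higher in *Bmal1*-/- cells were *Slc2a2*, the glucose transporter, at 34.2, 50.7 and 43.3 against 5.805, 6.35 and 8.25 TPM (2.48, adjusted p = 1.03e-06), and the transcription factor genes *Pax4*, at 15.96 ± 1.098 against 0.485 ± 0.189 TPM (3.52, adjusted p = 2.35e-08), and *Nkx2-2*, at 112 ± 0.5302 against 35.3 ± 5.98 TPM (1.65, adjusted p = 1.51e-06). WT was at 109 ± 6.25 TPM for *Slc2a2*, above both lines. Higher in *Clock*-/- cells were *Rfx6*, a factor for islet development, at 116 ± 21.1 against 26.1 ± 2.44 TPM (−2.10, adjusted p = 2.55e-06), and *G6pc2*, the islet glucose-6-phosphatase, at 2853 ± 187 against 1193 ± 80.3 TPM (−1.26, adjusted p = 1.02e-06). Other β-cell factors differed by less. *Mafa* was higher in *Clock*-/- cells (−0.68, adjusted p = 2.13e-04) and *Nkx6-1* in *Bmal1*-/- cells (0.36, adjusted p = 9.53e-04, or 0.0123 with the median of chromosome 5 subtracted). For *Neurod1* the interval of the difference was −0.17 to 0.23, and for *Pdx1* it was −0.42 to −0.08 (adjusted p = 0.0156).

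The single largest differences included genes of secretion and signaling. *Sorl1*, a VPS10-domain sorting receptor, was at 1.47, 1.49 and 1.37 TPM in *Bmal1*-/- and 166, 132 and 193 in *Clock*-/- libraries, with WT at 6.77, 6.78 and 5.93 between them, a difference of −6.06 (standard error 0.13, adjusted p = 1.79e-09). *Nsg2*, of neuronal vesicles, was at 0.0339, 0 and 0 TPM in the *Bmal1*-/- line and 52.3, 49.1 and 52.8 in the *Clock*-/- line (−5.69, adjusted p = 1.71e-09). Both had the WT libraries near the *Bmal1*-/- end. *Oxtr*, the oxytocin receptor gene, was at 6.39, 6.99 and 6.01 TPM in *Bmal1*-/-, 161, 137 and 177 in *Clock*-/- and 108, 105 and 101 in WT libraries (−4.41, adjusted p = 1.79e-09). *Bmyc*, a MYC relative, and *Cartpt*, which encodes a neuropeptide precursor, were at 0.77 ± 0.2903 and 1.29 ± 0.4698 TPM in *Bmal1*-/- cells and at 44.3 ± 3.28 and 40.8 ± 6.94 in *Clock*-/- cells, whose libraries overlapped WT for both. The opsin gene *Opn5* was at 3.89 ± 0.481 and 91.05 ± 1.65 TPM (−4.24, adjusted p = 1.79e-09). *Ly6h*, *Golga7b*, *Klhl13* and the predicted genes *Gm45589* and *Gm27168* completed the 12, with differences from −5.31 to −4.14.

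In the other direction, *Gm14742*, a predicted gene on X, was at 381, 389 and 387 TPM in *Bmal1*-/- and at 0, 0 and 0.5301 in *Clock*-/- libraries, both below the 748, 707 and 648 of WT (8.39, adjusted p = 5.75e-10). *Pla2g2f*, a secreted phospholipase, was at 83.5, 87.5 and 81.9 TPM in the *Bmal1*-/- line and 0.132, 0.409 and 0.819 in the *Clock*-/- line (5.90, adjusted p = 2.05e-08), and *Spon2*, a matrix protein gene, at 61.96, 59.7 and 59.1 in the *Bmal1*-/- line and 0.774, 0.411 and 0.4798 in the *Clock*-/- line (5.31, adjusted p = 2.83e-09). For both genes the *Clock*-/- libraries overlapped WT and the *Bmal1*-/- libraries were far above. *Enpep*, the aminopeptidase A gene, was lower than WT in both lines, at 45.6 ± 3.51 TPM in *Bmal1*-/-, 1.299 ± 0.289 in *Clock*-/- and 97.6 ± 10.6 in WT cells (4.35, adjusted p = 6.13e-09). *Cdkl1*, a kinase gene, was at 114 ± 12.9, 2.72 ± 0.852 and 19.8 ± 4.33 TPM, with WT between the lines (4.98, adjusted p = 5.90e-08). *Serpina1b* (5.09) belongs to a cluster of near-identical genes between which reads may be split, and *Gm13889*, *S100a4*, *Spp2*, *Ambp* and *Snx31* had differences of 4.37 to 5.03.

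**Figure D4:**
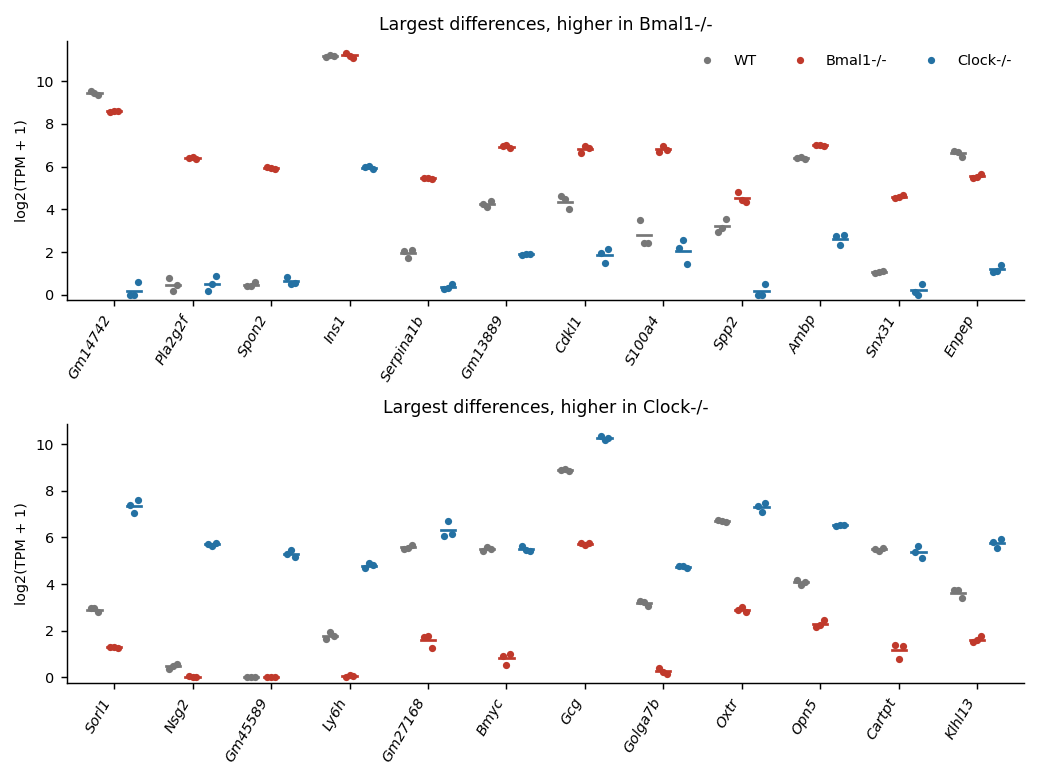
Points are the log2(TPM + 1) of each library, with a bar at each mean, for the 12 largest differences higher in *Bmal1*-/- (upper) and the 12 higher in *Clock*-/- cells (lower) at a mean of at least 20 TPM. WT libraries (grey) lie with one line for genes such as *Ins1*, *Pla2g2f* and *Bmyc*, between the lines for *Gcg* and *Sorl1*, and above both for *Gm14742* and *Enpep*.

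Endoplasmic reticulum chaperones and unfolded protein response genes had the largest share of members higher in one line among the lists of over 20 tested genes. Of 56 chaperones and genes of the unfolded protein response tested, 0 were higher in *Bmal1*-/- and 34 in *Clock*-/- cells (60.7%, against 21.8% of all genes), with a median difference of −0.47. With limma at an unadjusted p under 0.05 the counts were 3 and 39, and over the alternative settings at the adjusted threshold 0 to 2 and 33 to 40. The summed level of the list was 14856, 14485 and 14909 TPM in *Bmal1*-/- libraries, 22646, 21178 and 21911 in *Clock*-/- and 25716 to 27722 in WT libraries, so both lines were below WT and did not overlap. The median difference from WT was −0.81 in *Bmal1*-/- and −0.29 in *Clock*-/- cells, which share the WT libraries. *Kdelr3*, which returns escaped proteins to the endoplasmic reticulum, was at 0.199, 0.464 and 0.582 TPM in *Bmal1*-/-, 9.68, 10.6 and 8.999 in *Clock*-/- and 93.4, 103 and 91.6 in WT libraries (−2.93, adjusted p = 8.59e-08). *Chac1*, a glutathione-degrading enzyme induced by stress, was at 21.6, 19.2 and 19.5 TPM in the *Bmal1*-/- line, at 189, 164 and 185 in the *Clock*-/- line and at 90.9, 86.4 and 90.1 in WT, with WT between the lines (−3.09, adjusted p = 3.89e-09). *Trib3*, a pseudokinase of the ATF4 response, and *Phgdh*, the first enzyme of serine synthesis, followed at −2.19 (adjusted p = 1.25e-08) and −2.08 (adjusted p = 1.06e-07).

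Insulin granule cargo and processing genes had more members higher in *Clock*-/- cells: of 28 tested 6 were higher in *Bmal1*-/- and 15 in *Clock*-/- cells (21.4% and 53.6%, against 22.8% and 21.8% of all genes). *Vgf*, a granule peptide precursor, was at 26.4 ± 2.58 TPM in *Bmal1*-/- and 149 ± 2.53 in *Clock*-/- cells (−2.46, adjusted p = 1.49e-08), and *Ptprn* (IA-2), a granule membrane protein, at 254 ± 15.1 and 619 ± 81.8 TPM (−1.28, adjusted p = 3.97e-06). Both were below WT, at 189 ± 8.598 and 1117 ± 54.99 TPM. *Ero1lb*, an oxidase for insulin folding, was higher in *Clock*-/- cells as well (−1.13, adjusted p = 2.02e-05). The proinsulin convertases were split. *Pcsk2* was at 922 ± 18.8 TPM in *Bmal1*-/- and 482 ± 42.4 in *Clock*-/- cells (0.94, adjusted p = 3.52e-06), and *Pcsk1* at 252 ± 10.1 and 349.6 ± 56.3 TPM (−0.46, adjusted p = 0.00581, or 0.0293 with the median of chromosome 13 subtracted). Secretogranin II (*Scg2*) was higher in *Bmal1*-/- cells (0.86, adjusted p = 8.67e-06).

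Cell cycle and DNA replication genes were higher in *Bmal1*-/- cells. Of 68 tested, 38 were higher in *Bmal1*-/- and 6 in *Clock*-/- cells (55.9% and 8.82%, against 22.8% and 21.8% of all genes), with a median difference of 0.36, and over the alternative settings the counts were 32 to 39 and 3 to 9. Most differences were small, and 6 of the 38 passed a difference of 1. *Cdc45* and *Cdc6*, of the replicative helicase and its loading, were at 141 ± 6.65 and 68.4 ± 1.55 TPM in *Bmal1*-/- cells and at 50.1 ± 3.09 and 29.1 ± 3.24 in *Clock*-/- cells (1.47, adjusted p = 1.64e-07, and 1.21, adjusted p = 3.41e-06). *Top2a*, topoisomerase II, was at 558 ± 20.99 and 259.8 ± 49.04 TPM (1.12, adjusted p = 4.16e-05). These 3 genes lie on chromosomes 16 and 11 and remained past the test with the chromosome median subtracted (1.01, 0.93 and 0.83). *Ccnd2*, cyclin D2, was the clear exception, at 20.7, 15.7 and 20.5 TPM in *Bmal1*-/-, 279, 223 and 306 in *Clock*-/- and 59.3, 51.1 and 48.04 in WT libraries (−3.76, adjusted p = 4.22e-08). Histone genes, a group chosen after its values were seen, had 49 tested members and a median of −0.49. Of these 0 were higher in *Bmal1*-/- and 15 in *Clock*-/- cells (0% and 30.6%, against 22.8% and 21.8% of all genes). With limma at an unadjusted p under 0.05 the histone counts were 0 and 26, and near-identical copies may share reads. The libraries were made from poly(A) RNA, and the part of that selection in the histone levels was not tested.

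Lists of bHLH, chromatin and developmental regulators had more members higher in *Bmal1*-/- cells, and the imprinted genes more in *Clock*-/- cells. Over all genes tested the shares were 22.8% and 21.8%. Of 24 bHLH factors that bind E-boxes besides the clock proteins, 11 were higher in *Bmal1*-/- and 2 in *Clock*-/- cells (45.8% and 8.33%, over the alternatives 10 to 13 and 1 to 4 genes). The MAX-binding repressors of the MXD family were among them, with *Mxi1* at 34.4 ± 2.94 against 12.9 ± 1.68 TPM (1.35, adjusted p = 9.29e-06), *Mxd4* at 44.1 ± 1.15 against 17.6 ± 1.8 (1.28, adjusted p = 2.97e-06) and *Mxd3* at 100.2 ± 3.07 against 46.7 ± 1.79 (1.09, adjusted p = 7.09e-07). Of 36 polycomb, DNA methylation and TET genes 13 were higher in *Bmal1*-/- and 3 in *Clock*-/- cells (36.1% and 8.33%, over the alternatives 10 to 16 and 3 to 5 genes). The demethylase gene *Kdm6b* was at 1.43 (adjusted p = 1.34e-04) and *Phf19*, a polycomb subunit, at −1.69 (adjusted p = 3.28e-06). Of 22 homeobox and developmental factors 12 were higher in *Bmal1*-/- and 2 in *Clock*-/- cells (54.5% and 9.09%). *Tbx3* led the 12 at 23.4 ± 0.7198 against 1.52 ± 0.153 TPM (3.28, adjusted p = 1.03e-08), with *Irx5* at −1.68 on the other side (adjusted p = 1.23e-05). Of 26 imprinted genes 5 were higher in *Bmal1*-/- and 9 in *Clock*-/- cells (19.2% and 34.6%, over the alternatives 4 to 8 and 6 to 10 genes). With the chromosome median subtracted the counts were 5 and 7. At the *Dlk1*–*Meg3* locus of chromosome 12 the genes of opposite parental alleles differed in opposite directions. *Dlk1* was at 66.6, 63.7 and 65.8 TPM in *Bmal1*-/- and 11.2, 10.1 and 12.4 in *Clock*-/- libraries (2.45, adjusted p = 2.35e-08), and *Meg3* at 4.59, 6.32 and 5.18 in the *Bmal1*-/- line and 19.8, 19.7 and 20.9 in the *Clock*-/- line (−1.74, adjusted p = 1.28e-06).

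Interferon-stimulated and antigen presentation genes differed by subset. Of 29 interferon-stimulated genes 15 were higher in *Bmal1*-/- and 2 in *Clock*-/- cells (51.7% and 6.9%, against 22.8% and 21.8% of all genes), with a median of 0.60. Over the alternative settings the counts were 9 to 18 and 1 to 4. *Usp18*, which restrains the interferon receptor, was at 17.2 ± 1.43 against 4.44 ± 0.295 TPM (1.74, adjusted p = 4.38e-07) and *Irf1* at 34.6 ± 0.806 against 13.8 ± 1.66 (1.27, adjusted p = 3.34e-06), while *Rtp4* was higher in *Clock*-/- cells (−1.44, adjusted p = 5.19e-05). Of 21 genes of MHC class I presentation 9 were higher in *Bmal1*-/- and 5 in *Clock*-/- cells (42.9% and 23.8%). The Qa genes *H2-Q2*, *H2-Q6* and *H2-Q7* were higher in *Clock*-/- cells, with differences of −3.56, −2.85 and −3.25, and may share reads as near-identical copies. *Tapbp*, the tapasin gene, *H2-T23* and *H2-M3* were higher in *Bmal1*-/- cells, at 1.82, 2.26 and 2.58. All 6 lie on chromosome 17 between 32354055 and 40935047, where the median over all genes was 0.54 and 0.41 in neighbouring bins, at −0.58 and −0.37 in *Clock*-/- and 0.04 and 0.14 in *Bmal1*-/- cells against WT. The part of that stretch in these differences was not tested.

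Genes that excite the cell and release its granules had single members far apart. Of 39 potassium channel subunits 12 were higher in *Bmal1*-/- and 12 in *Clock*-/- cells (30.8% each, against 22.8% and 21.8% of all genes), over the alternatives 10 to 13 and 4 to 13. *Kcnk16*, the TALK-1 channel of islets, was at 281, 221 and 243 TPM in *Bmal1*-/-, 18.7, 16.99 and 24.1 in *Clock*-/- and 188, 195 and 178 in WT libraries (3.58, adjusted p = 2.65e-08), and *Kcnmb2*, a subunit of the BK channel, at 28.3 ± 3.82 and 1.83 ± 0.718 TPM (3.39, adjusted p = 3.82e-07). *Kcnk1*, another channel of the family of *Kcnk16*, was listed at 0 in every *Bmal1*-/- library and at 7.65, 6.84 and 8.08 TPM in *Clock*-/- libraries, with WT at 29.7, 30.6 and 25.8 (−3.09, adjusted p = 3.42e-08). Of 20 voltage-gated calcium and sodium channel subunits 6 were higher in *Bmal1*-/- and 3 in *Clock*-/- cells (30% and 15%). Over the alternatives these counts were 5 to 8 and 0 to 7, and 6 and 6 without *Clock*-/- replicate 2. The β subunit genes *Cacnb1* and *Cacnb3* and the γ subunit genes *Cacng4* and *Cacng7* were higher in *Bmal1*-/- cells by 1.26, 1.48, 1.56 and 1.27. *Cacnb3*, like *Adcy6* and *Pfkm*, lies in the stretch of chromosome 15 with a median of 0.56. *Cacna1a*, which encodes a pore subunit, was higher in *Clock*-/- cells (−0.69, adjusted p = 0.004305) and remained so in 14 of 20 alternative settings.

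Of 63 neurotransmitter and hormone receptors 8 were higher in *Bmal1*-/- and 20 in *Clock*-/- cells (12.7% and 31.7%, against 22.8% and 21.8% of all genes). Over the alternatives these counts were 5 to 13 and 11 to 28. Besides *Oxtr*, the purinergic receptor gene *P2ry1* was at 23.9 ± 0.253 against 153 ± 30.1 TPM (−2.61, adjusted p = 2.69e-07) and *Vipr2*, which encodes a VIP receptor, at 1.87 ± 0.316 against 10.9 ± 2.35 (−2.04, adjusted p = 9.32e-06). *Ghr*, the growth hormone receptor gene, was higher in *Bmal1*-/- cells (1.18, adjusted p = 3.19e-05). Of 91 SNARE and vesicle fusion genes 27 were higher in *Bmal1*-/- and 21 in *Clock*-/- cells (29.7% and 23.1%, near the 22.8% and 21.8% of all genes). The calcium sensors of exocytosis *Syt5* and *Syt7* differed in opposite directions. *Syt5* was at 3.67, 3.45 and 3.46 TPM in *Bmal1*-/- and 60.05, 59.8 and 54.5 in *Clock*-/- libraries (−3.71, adjusted p = 1.79e-09), and *Syt7* at 91.7, 89.7 and 90.7 in the *Bmal1*-/- line and 25.9, 17.9 and 28.6 in the *Clock*-/- line (1.90, adjusted p = 4.24e-06). *Cadps* and *Rph3al*, which act in priming and docking, were higher in *Bmal1*-/- cells by 1.51 and 1.79.

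Of 58 genes of cAMP, RGS and diacylglycerol signaling 18 were higher in *Bmal1*-/- and 13 in *Clock*-/- cells (31% and 22.4%, against 22.8% and 21.8% of all genes). Adenylyl cyclase genes, which make cAMP, were on both sides. *Adcy1*, on chromosome 11, was at 112, 118 and 119 TPM in *Bmal1*-/- and 25.6, 15.99 and 31.6 in *Clock*-/- libraries (2.26, adjusted p = 1.01e-05), *Adcy9*, on chromosome 16, at 55.1 ± 2.98 and 11.2 ± 6.46 (2.35, adjusted p = 1.65e-04), and *Adcy6* at 63.5 ± 4.14 and 20.7 ± 4.304 (1.59, adjusted p = 7.06e-06). *Adcy2* was higher in *Clock*-/- cells (−1.02, adjusted p = 1.08e-04), as were the phosphodiesterase genes *Pde1c* and *Pde10a*, which degrade cyclic nucleotides (−1.75 and −1.47). The catalytic subunit gene *Prkacb* of protein kinase A was higher in *Bmal1*-/- cells (1.25, adjusted p = 1.31e-05).

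**Figure D5:**
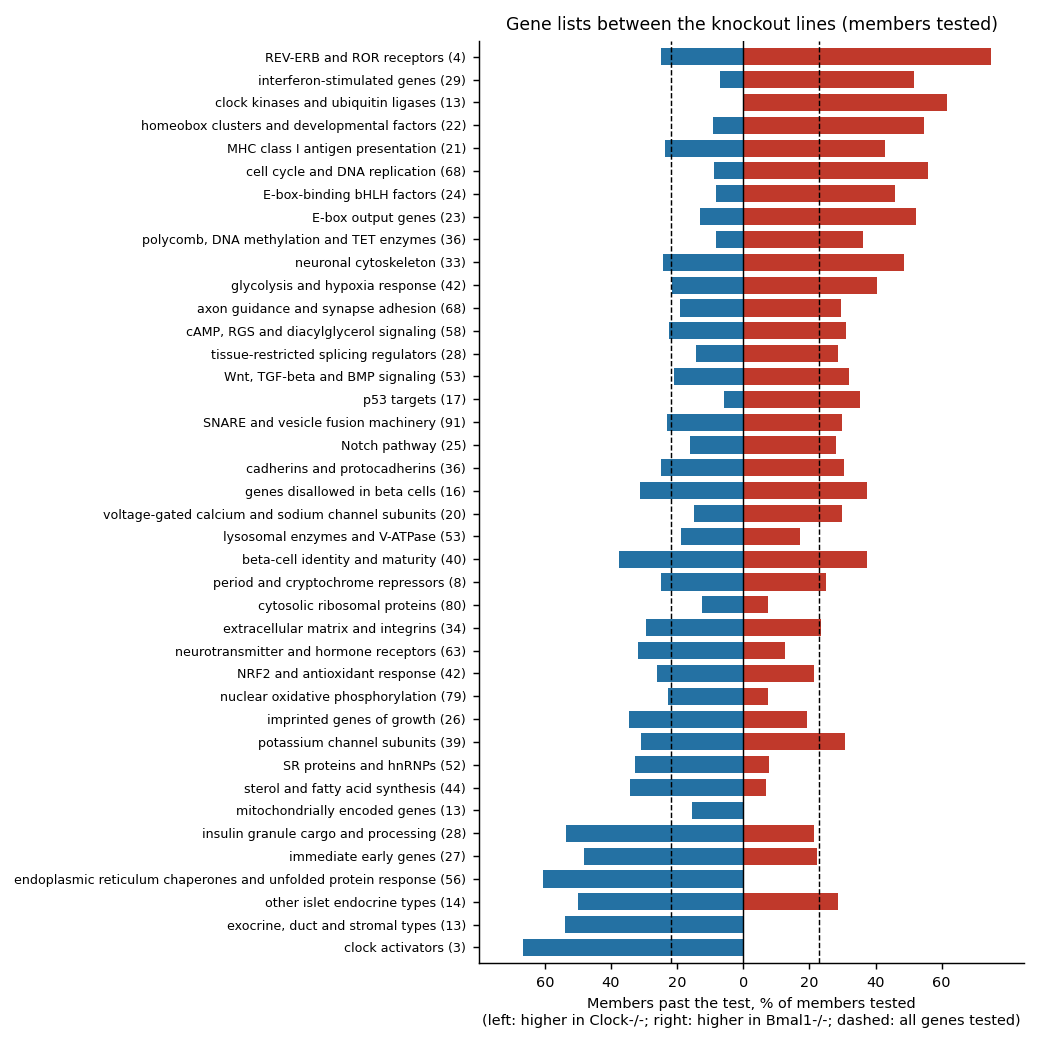
For each gene list (number of members tested in brackets), bars give the percentage of tested members higher in *Clock*-/- (left, blue) and in *Bmal1*-/- cells (right, red) at an adjusted p under 0.01, ordered by the median difference, with dashed lines at the 21.8% and 22.8% of all genes tested. The list of endoplasmic reticulum chaperones and unfolded protein response genes has 60.7% on the left and none on the right. Cell cycle genes have 55.9% on the right and 8.82% on the left.

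Metabolic lists did not all lean the same way. Of 42 glycolysis and hypoxia genes 17 were higher in *Bmal1*-/- and 9 in *Clock*-/- cells (40.5% and 21.4%, against 22.8% and 21.8% of all genes). *Ndrg1*, a hypoxia-induced gene, was at 109.8, 109.6 and 109 TPM in *Bmal1*-/- and 10.6, 9.64 and 11.3 in *Clock*-/- libraries (3.26, adjusted p = 1.79e-09), and *Pfkm*, a phosphofructokinase, at 154 ± 10.6 and 59.4 ± 6.34 (1.37, adjusted p = 1.84e-06). *Pfkfb2* and the lactate dehydrogenase gene *Ldhb* were higher in *Clock*-/- cells (−1.85 and −1.58). Of 79 nuclear genes of oxidative phosphorylation 6 were higher in *Bmal1*-/- and 18 in *Clock*-/- cells (7.59% and 22.8%), and 55 did not pass. Over the alternatives these counts were 0 to 9 and 14 to 28. Of 13 mitochondrially encoded genes 2 (15.4%) were higher in *Clock*-/- cells, *mt-Nd5* (−0.69, adjusted p = 0.00684) and *mt-Cytb* (−0.56, adjusted p = 0.00185). Of 44 genes of sterol and fatty acid synthesis 3 were higher in *Bmal1*-/- and 15 in *Clock*-/- cells (6.82% and 34.1%). Over the alternatives these counts were 2 to 6 and 10 to 20. Among the 15 were the elongase gene *Elovl6* (−2.0, adjusted p = 5.25e-06) and the squalene epoxidase gene *Sqle* (−1.39, adjusted p = 1.21e-06).

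Of 42 NRF2 and antioxidant genes 9 were higher in *Bmal1*-/- and 11 in *Clock*-/- cells (21.4% and 26.2%, near the 22.8% and 21.8% of all genes). The metallothionein genes *Mt1* and *Mt2* were at 1613 ± 224 and 840.2 ± 70.8 TPM in *Bmal1*-/- cells and at 5144 ± 801 and 2824 ± 309.9 in *Clock*-/- cells (−1.67 and −1.75), and *Gstm1*, a glutathione transferase gene, was on the other side (1.49, adjusted p = 1.66e-06). Of 27 immediate early genes 6 were higher in *Bmal1*-/- and 13 in *Clock*-/- cells (22.2% and 48.1%, against 22.8% and 21.8% of all genes). *Nr4a1*, an orphan nuclear receptor, was at 4.67, 4.11 and 5.45 TPM in *Bmal1*-/-, 32.4, 34.99 and 37.6 in *Clock*-/- and 90.1, 92.4 and 96.95 in WT libraries (−2.65, adjusted p = 4.04e-08). *Jun* was higher in *Bmal1*-/- cells, at 143, 134 and 141 against 48.2, 45.8 and 56.3 TPM, with WT at 45.6, 46.2 and 46.9 (1.46, adjusted p = 5.23e-07). Of 17 targets of p53 6 were higher in *Bmal1*-/- and 1 in *Clock*-/- cells (35.3% and 5.88%, against 22.8% and 21.8% of all genes). Over the alternatives these counts were 4 to 7 and 0 to 4, and 4 and 3 without *Clock*-/- replicate 2. Of 53 lysosomal genes 9 were higher in *Bmal1*-/- and 10 in *Clock*-/- cells (17% and 18.9%, over the alternatives 7 to 11 and 6 to 14 genes). Of 80 cytosolic ribosomal protein genes 6 were higher in *Bmal1*-/- and 10 in *Clock*-/- cells (7.5% and 12.5%, over the alternatives 1 to 19 and 3 to 16 genes). The last count was 19 and 8 without *Clock*-/- replicate 2.

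Splicing regulators, which the study followed in these cells, differed modestly. Of 52 SR proteins and hnRNPs 4 were higher in *Bmal1*-/- and 17 in *Clock*-/- cells (7.69% and 32.7%, against 22.8% and 21.8% of all genes), with a median of −0.18. Over the alternatives these counts were 2 to 6 and 14 to 25. *Srsf5* was at 112, 126 and 122 TPM in *Bmal1*-/- and 269, 237 and 272 in *Clock*-/- libraries (−1.10, adjusted p = 3.30e-06), *Taf15* had a difference of −1.20 and *Srsf10* of −0.87, and *Pcbp2* was higher in *Bmal1*-/- cells (1.02, adjusted p = 1.03e-05). Of 28 tissue-restricted splicing regulators 8 were higher in *Bmal1*-/- and 4 in *Clock*-/- cells (28.6% and 14.3%). *Elavl3*, a neuronal RNA-binding protein, was at 0.548 ± 0.163 and 7.41 ± 0.436 TPM (−2.45, adjusted p = 2.78e-07), and *Nova2* at 11.5 ± 0.1703 and 3.601 ± 0.834 (1.45, adjusted p = 2.76e-05).

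Genes of cell contact, matrix and axon growth were on both sides. Of 68 genes of axon guidance and synapse adhesion 20 were higher in *Bmal1*-/- and 13 in *Clock*-/- cells (29.4% and 19.1%, against 22.8% and 21.8% of all genes). Over the alternatives these counts were 14 to 30 and 7 to 17. The semaphorin receptor gene *Nrp2* was at 15.4 ± 0.5103 against 0.377 ± 0.109 TPM (3.58, adjusted p = 2.35e-08). Of 33 genes of the neuronal cytoskeleton 16 were higher in *Bmal1*-/- and 8 in *Clock*-/- cells (48.5% and 24.2%). *Mapt*, the tau gene, was at −1.22 (adjusted p = 6.15e-06) and *Basp1* at 1.51 (adjusted p = 1.99e-07). Of 36 cadherins and protocadherins 11 were higher in *Bmal1*-/- and 9 in *Clock*-/- cells (30.6% and 25%). Of 34 matrix and integrin genes 8 were higher in *Bmal1*-/- and 10 in *Clock*-/- cells (23.5% and 29.4%). The matrix list included the collagen gene *Col27a1* (−2.41, adjusted p = 1.79e-07) and *Sparcl1* (3.03, adjusted p = 1.79e-07). Of 53 genes of Wnt, TGF-β and BMP signaling 17 were higher in *Bmal1*-/- and 11 in *Clock*-/- cells (32.1% and 20.8%, over the alternatives 10 to 20 and 9 to 15 genes). *Id1*, a BMP target, was at 13.4 ± 0.3101 TPM in *Bmal1*-/- and 128 ± 16.5 in *Clock*-/- cells (−3.16, adjusted p = 1.43e-08). Of 25 Notch genes 7 were higher in *Bmal1*-/- and 4 in *Clock*-/- cells (28% and 16%), with the ligand gene *Dll1* at 1.46 (adjusted p = 1.08e-05). Of 16 genes that mature β cells keep low 6 were higher in *Bmal1*-/- and 5 in *Clock*-/- cells (37.5% and 31.2%), among them *Acot7* (−1.55) and *Zyx* (1.66). Of the 13 tested exocrine, duct, stromal and immune markers 0 were higher in *Bmal1*-/- and 7 in *Clock*-/- cells (0% and 53.8%). *Epcam*, *Cd68* and *Krt8* led these, with differences of −3.38, −3.34 and −1.93. At an unadjusted p under 0.05 limma placed 1 and 8 of them on the 2 sides, and their part in the other results was not tested.

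For some genes the lines lay on the same side of WT and still differed. *Lgals2*, a galectin gene, was at 214, 213 and 216 TPM in WT libraries but at 2.87, 3.15 and 3.07 in those of *Bmal1*-/- and at 0.552, 0.342 and 0 in those of *Clock*-/- cells, a difference between the lines of 1.66 (adjusted p = 1.06e-05). *Aard* was at 274 ± 13.9, 12.1 ± 2.57 and 2.46 ± 0.909 TPM (1.94, adjusted p = 1.96e-05), and *Necab2*, a calcium-binding protein gene, at 75.3 ± 3.18, 2.93 ± 0.505 and 0.915 ± 0.127 (1.03, adjusted p = 6.45e-05). *Ngfr*, a neurotrophin receptor gene, and *Kdelr3* were lower in *Bmal1*-/- than in *Clock*-/- cells, *Ngfr* by a difference of −1.70 (adjusted p = 1.15e-06). Above WT in both lines were *Renbp*, at 19.5 ± 0.211 TPM in WT cells, 266 ± 33.3 in the *Bmal1*-/- line and 74.99 ± 6.67 in the *Clock*-/- line (1.81, adjusted p = 4.91e-07), and the folate receptor gene *Folr1*, at 8.66 ± 0.867, 96.4 ± 7.68 and 25.6 ± 1.49 TPM (1.87, adjusted p = 2.90e-07). *Itm2a* was higher in *Bmal1*-/- (1.01) and *Synpr* and *Epb41l4a* were higher in *Clock*-/- cells (−1.31 and −1.21), all above WT in both.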

How the data were processed

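RNA-seq of poly(A) RNA from β-TC6 cells gave 3 WT, 3 *Bmal1*-/- and 3 *Clock*-/- libraries, grouped by their labels. Per the labels and the study's methods, the authors aligned reads to mm10 with STAR 2.5.0 and counted them with featureCounts 1.5.3, and they deposited 1 table of TPM for 20599 genes. TPM keeps no read counts, so depth is known only as a ratio between libraries. Deposited tables of the authors' fold changes and p-values, made with DESeq2 1.22.1, and the THRAP3 files were not used. Of the gene IDs, 100 had no position in GENCODE vM21 (GRCm38, the coordinates of mm10).

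Log2(TPM + 1) was fitted for genes with at least 1 TPM in 3 or more libraries with limma 3.58.1 (lmFit and eBayes with trend, two-sided) in R 4.3.3, all 9 libraries in 1 fit. Python 3.11.15 made the summaries. Benjamini–Hochberg adjustment ran over all 15031 genes. The fit was tested on simulated data. Replicate numbers do not pair the lines: deviations of same-numbered libraries correlated at 0.0335, 0.0274 and 0.0742 and those of other pairs at −0.059 to 0.0275. The gene lists, thresholds and named genes were chosen with earlier results of these data known.

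Named were the tested clock, REV-ERB, ROR and output genes, the 12 largest called differences each way at a mean of at least 20 TPM without overlap, and the called gene of highest level on each chromosome whose median departed by over 0.2. From each list came up to 4 members each way at a mean of at least 5 TPM, and 5 called genes above and 5 below both lines had WT farthest outside. β-cell markers fixed for the cell type check and listed genes that did not pass were named as well, as were *Hsf2bp*, *Evx1* and *Wtip* after their values were seen. A few genes that this rule names are not reported here.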

Additional observations from a re-analysis of the deposited data

How the results depend on the processing

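The counts of 939 genes called higher in *Bmal1*-/- and 1243 in *Clock*-/- cells moved by less than 1.5 times under the alternatives run, except that 627 were called higher in *Clock*-/- cells (and 698 in *Bmal1*-/- cells) among genes with a mean of at least 5 TPM, where fewer genes are tested. Adding 0.1 in place of 1 gave 1147 and 1572, subtracting the chromosome median 860 and 1197, and quantile normalization 1022 and 996, which moved the share of calls higher in *Bmal1*-/- cells from 43% to 50.6%. Left-out libraries gave 799 to 1103 and 1124 to 1266, with 799 and 1266 without *Clock*-/- replicate 2 and 1103 and 1198 without *Clock*-/- replicate 3. With a replicate block the counts were 937 and 1218, and 20 of the 314 named genes no longer passed.

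Of the named genes, 2 reversed, both with the chromosome median subtracted: *Atp5o* on chromosome 16 at −0.075 (limma, adjusted p = 0.508) and *Rpl35a* at −0.051 (limma, adjusted p = 0.689). The counts of gene lists under these settings were added after seeing the data. Each line is 1 clone with 3 wells, low genes carry few reads of unknown number, and the *Bmal1*-/- libraries list more genes at 0.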
